A study of Mus musculus with 28 samples.

Results

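The peroxisome proliferator-activated receptors (PPARs) and 7 genes of fatty acid handling that they are known to regulate were followed through the RNA data of this series. The 10 genes were taken by name, as receptors and known targets. They comprise the 3 receptors Ppara, Ppard and Pparg and the 7 targets Pdk4, Plin2, Angptl4, Cpt1a, Acot1, Ehhadh and Decr1. All 10 were found in both bulk tables, which hold 35429 genes for the lines and 35267 for the c-Kit+ cells. The single-cell tables, of 9448 genes for days 1 and 3 and 11662 for day 5, list 7 of them, leaving out Ppara, Pdk4 and Ehhadh.

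All cells came from the bone marrow of C57Bl/6 mice. One bulk set held 4 groups of 3 libraries: an EYA1+HOXA9 line with benzarone, the same line with DMSO, a HOXA9 line with benzarone, and that line with DMSO. These lines were c-Kit+ marrow cells carrying retroviral HOXA9, with or without EYA1, that had been sorted on fluorescent reporters and replated for 4 rounds in methylcellulose. Benzarone, a small-molecule inhibitor of the EYA phosphatases, was given at 5 µM for 72 h, and DMSO was its solvent. The other bulk set held 3 groups of 2 libraries: c-Kit+ cells transduced with the leukaemia fusion MOZ-TIF2, c-Kit+ cells with an empty vector (called differentiated), and c-Kit+ cells as isolated (fresh). Both transduced groups were sorted for GFP and spent 4 days in cytokine medium. Single cells came from Ty1-tagged MOZ-TIF2 cultures with 5 µM benzarone on days 1, 3 and 5 and with DMSO on days 1 and 5. Chromatin bound by the tagged protein was mapped in 2 samples. Benzarone was compared with DMSO in each line to see what the inhibitor changes in cells with and without added EYA1. The labels do not say whether libraries of a group are separate cultures, so p-values measure only the spread between these samples, which may be technical.

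PPARs are nuclear receptors that bind DNA as pairs with a retinoid X receptor, at 2 copies of a short hexamer, and are switched on by fatty acids and their derivatives. PPARα drives fatty acid oxidation in liver and other oxidative tissues, PPARδ is active in nearly all cells, and PPARγ directs fat cell formation and shapes lipid handling in macrophages. Their targets cover fuel choice, lipid droplet storage, entry of fatty acids into mitochondria and oxidation in peroxisomes.

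The label checks held: Eya1 stood at 134 to 276 CPM (counts scaled per library by TMM to a common total) in the 6 EYA1+HOXA9 libraries and at 0.0329 CPM or less in the 6 HOXA9 libraries. Hoxa9 stood at 180.4 CPM or more in all of these. Library totals were 26340517 to 34606046 counts in the lines, 33010700 to 34463851 in MOZ-TIF2 cells, 23656631 to 34260108 in differentiated cells and 12397486 to 15550960 in fresh cells. The differentiated libraries were rich in mast cell and basophil markers, whose 9 genes summed to 54220 to 77120 CPM there. The same markers summed to 12.4 to 17.3 CPM in MOZ-TIF2 cells and 209.6 to 221 CPM in fresh cells. Primary granule markers, which label granulocyte precursors, summed to 5493 to 7693 CPM in EYA1+HOXA9 cells with benzarone and 8102 to 8339 CPM with DMSO, and to 12710 to 14540 CPM in HOXA9 cells with benzarone and 14080 to 16420 CPM with DMSO. The mast cell proteases Cma1, Mcpt4 and Tpsb2 were at 0 in all of them.

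Promoter windows from RefSeq on GRCm38.p6 (250 bases before to 50 after a gene start) were found for 8 of the 10 genes, with 10 windows in all. Angptl4 and Decr1 are named only. Shown first are 3 targets whose levels moved with benzarone, to show what their starts hold, and then Cpt1a, the one member with a Ty1 peak inside the gene. The sequences run 5′ to 3′ on the strand of the gene, and capitals mark the PPAR hexamer AGGTCA or its reverse complement TGACCT. Plin2 lies on the minus strand at chr4:86670010-86670309, Pdk4 on the minus strand at chr6:5496229-5496528, Acot1 on the plus strand at chr12:84009252-84009551 and Cpt1a on the plus strand at chr19:3323051-3323350.
Plin2: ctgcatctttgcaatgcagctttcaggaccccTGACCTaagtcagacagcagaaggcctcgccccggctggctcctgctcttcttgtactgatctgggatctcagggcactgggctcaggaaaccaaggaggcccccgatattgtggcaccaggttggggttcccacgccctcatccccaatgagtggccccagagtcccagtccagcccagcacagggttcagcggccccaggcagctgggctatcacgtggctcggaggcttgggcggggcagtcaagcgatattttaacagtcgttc
Pdk4: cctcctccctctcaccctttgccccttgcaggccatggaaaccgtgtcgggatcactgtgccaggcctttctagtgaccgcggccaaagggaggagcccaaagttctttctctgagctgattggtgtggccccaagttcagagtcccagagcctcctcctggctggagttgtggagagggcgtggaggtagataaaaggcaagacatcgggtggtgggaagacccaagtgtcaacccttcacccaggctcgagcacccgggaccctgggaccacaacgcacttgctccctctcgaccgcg
Acot1: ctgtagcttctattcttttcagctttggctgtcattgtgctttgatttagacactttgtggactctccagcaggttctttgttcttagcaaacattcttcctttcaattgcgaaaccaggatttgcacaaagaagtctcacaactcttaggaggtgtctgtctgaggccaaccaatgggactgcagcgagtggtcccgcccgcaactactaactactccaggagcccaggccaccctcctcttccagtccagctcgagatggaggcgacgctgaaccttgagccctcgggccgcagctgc
Cpt1a: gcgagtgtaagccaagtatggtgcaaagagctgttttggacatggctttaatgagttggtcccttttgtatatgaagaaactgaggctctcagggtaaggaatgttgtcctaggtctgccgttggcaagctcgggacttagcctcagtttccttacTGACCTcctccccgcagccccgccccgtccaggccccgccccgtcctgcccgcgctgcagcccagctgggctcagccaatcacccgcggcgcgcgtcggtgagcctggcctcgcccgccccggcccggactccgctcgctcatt

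Both strands of these windows were searched for the hexamer alone and as a direct repeat with 1 base between. The hexamer AGGTCA was found in 4 of the 10 member windows, of 3 genes, against 16.3% of 32851 mouse windows of that length. It stood 218 to 213 bases before the start of Plin2 and 94 to 89 bases before that of Cpt1a, both as TGACCT on the gene's strand, and in a pair of Pparg windows. The full repeat, AGGTCA then any base N then AGGTCA, was in 0 member windows and in 0.0396% of all windows. Its looser form with AGGNCA in both places, which includes the strict one, was in 0 and 0.381%. The GC-rich box GGGCGG was in 8 member windows, of 7 genes, against 35.7% of all. These are letter matches in 1 window per start and say nothing of binding.

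Among the receptors, the 2 lines differed in Pparg and both had Ppard. Ppara, the receptor of oxidative tissues, was at or near 0, with 0 to 2 counts in each of the 12 libraries and too few to test. Pparg read 0.269, 0 and 0.0716 CPM in EYA1+HOXA9 cells with benzarone and 0.168, 0.237 and 0.304 CPM with DMSO. It read 8.21, 6.48 and 10.1 CPM in HOXA9 cells with benzarone and 6.02, 8.35 and 11.2 CPM with DMSO. Every EYA1+HOXA9 library lay below every HOXA9 library. Pparg was thus lower in EYA1+HOXA9 than in HOXA9 cells in DMSO (log2 difference -5.15 ± 0.52 SE, edgeR adjusted p = 3.09e-05) and in benzarone (ratio 0.0143, counting interval 0.00711 to 0.0257, adjusted p = 1.45e-05). Counting intervals of bulk ratios, here and below, cover counting error in the summed counts and not the spread between libraries. In bulk RNA, fewer cells with a transcript and less of it per cell cannot be told apart.

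Ppard, the receptor that most cells use, read 35.0, 24.9 and 20.3 CPM in EYA1+HOXA9 cells with benzarone and 25.7, 24.7 and 26.1 CPM with DMSO. It read 12.6, 16.2 and 32.6 CPM in HOXA9 cells with benzarone and 16.1, 14.2 and 34.3 CPM with DMSO. Both HOXA9 libraries numbered 3 lay above the other HOXA9 libraries, and the groups overlapped. Neither comparison of lines passed the test (log2 0.24, adjusted p = 0.66 in DMSO, and 0.39, adjusted p = 0.487 in benzarone). With all 4 libraries numbered 3 left out, Ppard was higher in EYA1+HOXA9 cells by log2 0.74 in DMSO and by 1.055 in benzarone. That fit was chosen after the values were seen and takes out the highest HOXA9 values, so it is no test of the difference. Over the 12 line libraries, the genes whose log2 CPM followed Ppard most closely were Acvr1b (Pearson r = 0.985), Map3k1 (0.972) and Usp32 (0.969), out of 9845 genes averaging 5 CPM or more. For Pparg they included F10 (0.974) and Lrg1 (0.973). These are descriptions over 12 libraries that come from 2 lines.

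**Figure D1:**
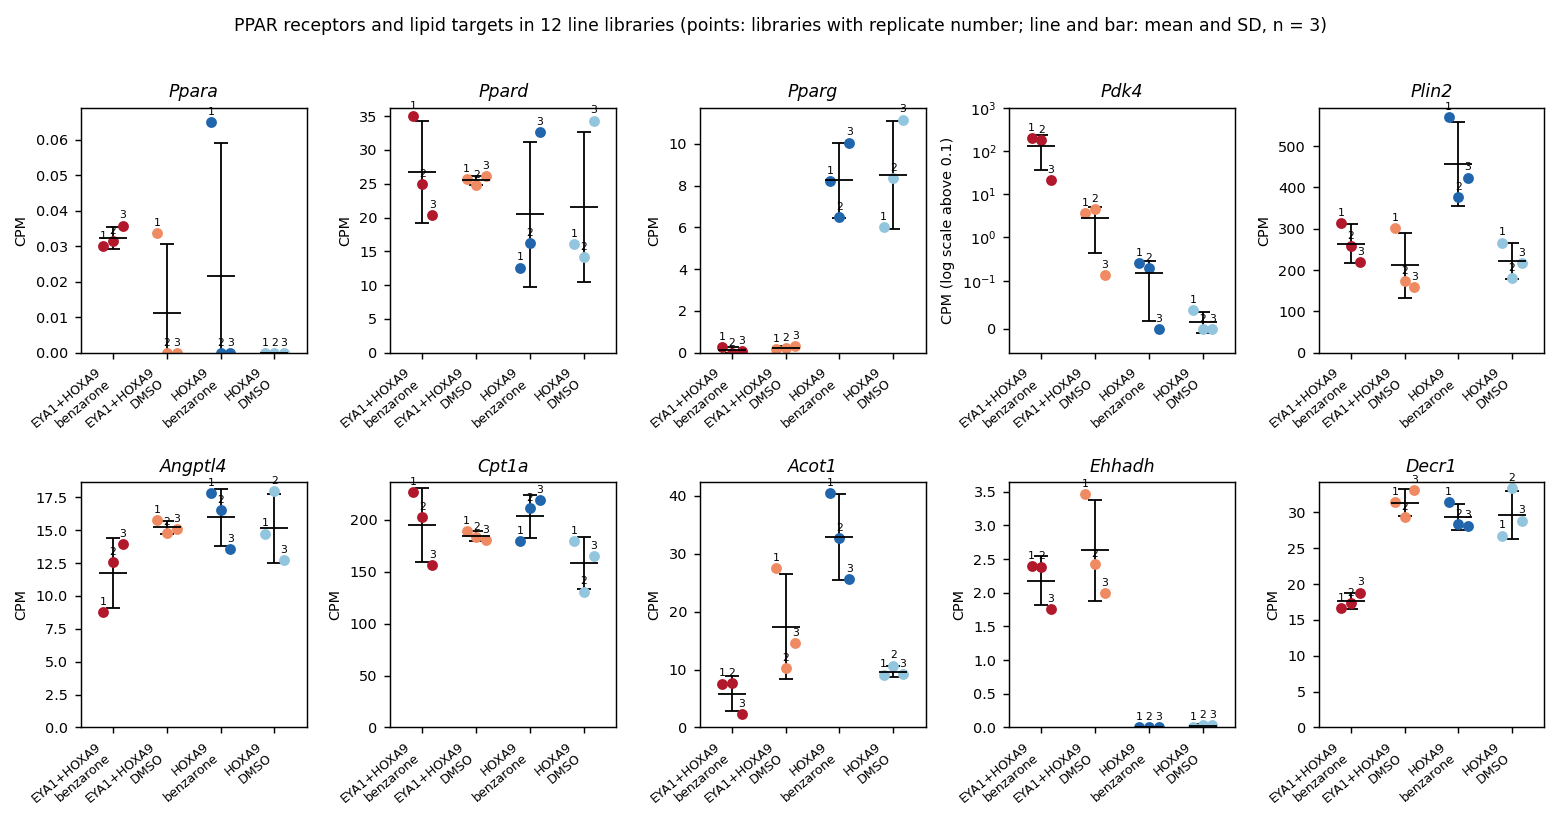
Normalised counts (CPM, vertical axes) of the 10 genes in each of the 12 line libraries, with the group mean and SD (n = 3). Pdk4 is on a log axis above 0.1 CPM and spans 0 to 199 CPM. Pparg and Ehhadh separate the lines, while Plin2 and Acot1 are highest in HOXA9 cells with benzarone.

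EYA1+HOXA9 and HOXA9 cells in DMSO differed in 3 of the 9 members tested, with Pdk4 and Ehhadh higher and Pparg lower in EYA1+HOXA9 cells. Of all 13375 genes tested, 22.9% were called, 12.1% higher and 10.8% lower. Ehhadh, the bifunctional enzyme of peroxisomal fatty acid oxidation, had 3.46, 2.42 and 1.995 CPM in EYA1+HOXA9 cells and 0, 0.0398 and 0.0359 CPM in HOXA9 cells. The lines did not overlap, and with 244 against 2 counts the ratio was 103 (counting interval 28.2 to 855, edgeR adjusted p = 2.81e-05). In benzarone, Ehhadh had 2.40, 2.39 and 1.75 CPM in EYA1+HOXA9 cells and no count in HOXA9 cells, at least 67.2-fold higher when the HOXA9 group is set to a floor of 3 counts (adjusted p = 1.51e-05).

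Pdk4, the kinase that turns off pyruvate dehydrogenase and so spares glucose, had 3.67, 4.62 and 0.136 CPM in EYA1+HOXA9 cells in DMSO, and 0.0391, 0 and 0 CPM in HOXA9 cells. With 269 against 1 count, the ratio was 227 (counting interval 40.4 to 9000, adjusted p = 0.0228). The third EYA1+HOXA9 library was more than an order of magnitude below the others. This call was lost when EYA1+HOXA9 replicate 2 (adjusted p = 0.0666) or any HOXA9 replicate (0.0827, 0.0805 and 0.0584 without replicates 1, 2 and 3) was left out. Acot1 (0.85 ± 0.41, adjusted p = 0.146), Cpt1a (0.22 ± 0.15, adjusted p = 0.308), Decr1 (0.08 ± 0.11, adjusted p = 0.637), Angptl4 (0.01 ± 0.19, adjusted p = 0.984) and Plin2 (-0.07 ± 0.25, adjusted p = 0.859) did not pass in DMSO. With Acot2 summed in, Acot1 did (0.98, adjusted p = 0.0202).

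Late neutrophil markers moved with the line as well: in DMSO 1 of 7 was higher and 4 were lower in EYA1+HOXA9 cells, with sums of 162.5 to 235 CPM against 639 to 2391 CPM. In benzarone 0 were higher and 6 lower, with sums of 41.4 to 148 CPM against 716 to 2878 CPM. Of 9 monocyte and macrophage markers, 2 were lower in DMSO and 4 higher in benzarone. The part of these markers in the line differences was not tested.

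In benzarone, the same lines differed in 6 of 9 members, with Pdk4 and Ehhadh higher and Pparg, Plin2, Acot1 and Decr1 lower in EYA1+HOXA9 cells. Of all genes, 25.3% were called, 15.2% higher and 10.1% lower. Pdk4 had 12983 counts against 14, a ratio of 912 (counting interval 543 to 1670, adjusted p = 0.000122). Plin2, the main coat protein of lipid droplets in most cells, was lower by log2 0.79 in size (-0.79 ± 0.25 SE, adjusted p = 0.0356). Its call was lost without EYA1+HOXA9 replicate 2 (adjusted p = 0.101), without replicate 3 (0.102) or without HOXA9 replicate 1 (0.143). Acot1, a cytosolic thioesterase that frees fatty acids from coenzyme A, was lower at -2.48 ± 0.43 (adjusted p = 0.00109). Decr1, the mitochondrial reductase that lets unsaturated fatty acids be oxidised, was lower at -0.73 ± 0.11 (adjusted p = 0.000555). Angptl4 (-0.44 ± 0.19, adjusted p = 0.102) and Cpt1a (-0.06 ± 0.15, adjusted p = 0.82) did not pass. Angptl4 did with all 4 libraries numbered 3 left out (-0.69, adjusted p = 0.035), a fit chosen after seeing the data.

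Benzarone raised Pdk4 and lowered Acot1 and Decr1 in EYA1+HOXA9 cells, so 3 of 9 members were called. In this comparison 29.4% of all genes were called, 17.0% higher and 12.4% lower. Pdk4 read 199, 180.3 and 21.2 CPM with benzarone, against 3.67, 4.62 and 0.136 CPM with DMSO. All benzarone libraries lay above all DMSO libraries, with the one numbered 3 the lowest in each group. The log2 difference was 5.56 ± 0.91 SE (edgeR adjusted p = 0.000962), and the ratio of group means was 47.6.

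Acot1 read 7.57, 7.69 and 2.32 CPM with benzarone in these cells, against 27.5, 10.2 and 14.5 CPM with DMSO. Groups did not overlap (log2 -1.56 ± 0.42, adjusted p = 0.0143), but without DMSO replicate 1 the adjusted p was 0.0617 (-1.07). Acot2, a near-identical neighbour of Acot1 on chromosome 12, can share reads with it, so the split of estimated counts between the pair is uncertain. With both genes summed, the difference was -1.40 (adjusted p = 0.00234). Decr1 read 16.7, 17.4 and 18.8 CPM with benzarone, against 31.5, 29.4 and 33.2 CPM with DMSO. These groups stood well apart and varied little within themselves (-0.83 ± 0.11, adjusted p = 0.000372).

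The other targets moved less in EYA1+HOXA9 cells. Plin2 had 313, 257 and 219.5 CPM with benzarone, against 302, 173.5 and 158 CPM with DMSO, and overlapped (0.32 ± 0.25, adjusted p = 0.372). Without DMSO replicate 1 it passed the test (0.67, adjusted p = 0.0392). Angptl4, a secreted inhibitor of lipoprotein lipase, had 8.77, 12.6 and 13.9 CPM with benzarone, against 15.7, 14.8 and 15.1 CPM with DMSO. Its groups did not overlap, but the difference missed the threshold (-0.37 ± 0.19, adjusted p = 0.156). Cpt1a, the gate for fatty acids into mitochondria, stood at 195 ± 35.7 CPM with benzarone and 184 ± 4.53 CPM with DMSO (SD, n = 3 each; log2 0.08, adjusted p = 0.723). Ehhadh gave -0.27 ± 0.34 (adjusted p = 0.598). Of the receptors, Ppard gave 0.07 ± 0.37 (adjusted p = 0.913), and Pparg missed the threshold with 11 against 22 counts (ratio 0.5, counting interval 0.219 to 1.08, adjusted p = 0.329). It passed without benzarone replicate 1 (adjusted p = 0.0413).

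Markers of monocytes and macrophages moved in the same comparison: 5 of 9 tested rose and 0 fell, and their sum was 966 to 1194 CPM with benzarone, against 165 to 319.6 CPM with DMSO. The complement genes C1qa, C1qb and C1qc stayed at 1.15 CPM or less on average in both groups. Of 6 primary granule markers 1 rose and 3 fell, with sums of 5493 to 7693 CPM against 8102 to 8339 CPM. Adipocyte markers summed to 0.107 to 0.22 CPM against 0.44 to 0.609 CPM, with Lep at 0. The part of these shifts in the Pdk4, Acot1 and Decr1 differences was not tested.

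Plin2 and Acot1 went up with benzarone in all HOXA9 libraries, in a comparison where edgeR called 0 of 13375 genes (0%). At an unadjusted p under 0.05 there were 232 genes, and DESeq2 called 14. Plin2 read 571, 376 and 423.5 CPM with benzarone, against 267, 180.4 and 217 CPM with DMSO. The groups were fully separate (log2 1.04 ± 0.25 SE, unadjusted p = 0.00133, edgeR adjusted p = 1), and Plin2 was 13th of all genes by p. Acot1 read 40.4, 32.7 and 25.7 CPM with benzarone, against 9.14, 10.7 and 9.14 CPM with DMSO. Here too the groups were apart (1.77 ± 0.41, unadjusted p = 0.00102, adjusted p = 1), and Acot1 ranked 12th.

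In the HOXA9 line, libraries with the same number deviated together (r = 0.279 to 0.55), so the number was also tried as a block. The labels give no such pairing, and pairs of libraries from different lines reached r = 0.252. With the number as a block in the fit of all line libraries, 6 genes were called, among them Plin2 (1.04, adjusted p = 0.0451). That fit also blocks the EYA1+HOXA9 libraries, whose numbers did not deviate together. With the block and only the 6 HOXA9 libraries, 20 genes were called, among them Plin2 (1.03, adjusted p = 0.0226) and Acot1 (1.74, adjusted p = 0.0336). DESeq2 gave adjusted p = 0.0416 for Plin2 and 0.0171 for Acot1. Cpt1a had 179.6, 211 and 219 CPM with benzarone, against 179.2, 131 and 165 CPM with DMSO, without overlap but with a small difference (0.36 ± 0.15, adjusted p = 1). Estimates for Angptl4 (0.08 ± 0.185), Decr1 (-0.02 ± 0.113), Ppard (-0.08 ± 0.372) and Pparg (-0.05 ± 0.395) lay within 0.1 of no difference. The SEs of Ppard and Pparg are wide enough that larger differences could be missed. Pdk4 had 14 counts with benzarone and 1 with DMSO (ratio 12, counting interval 1.83 to 508). Its groups overlapped, and it did not pass (edgeR unadjusted p = 0.403, adjusted p = 1). Ehhadh had 0 and 2 counts.

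**Figure D2:**
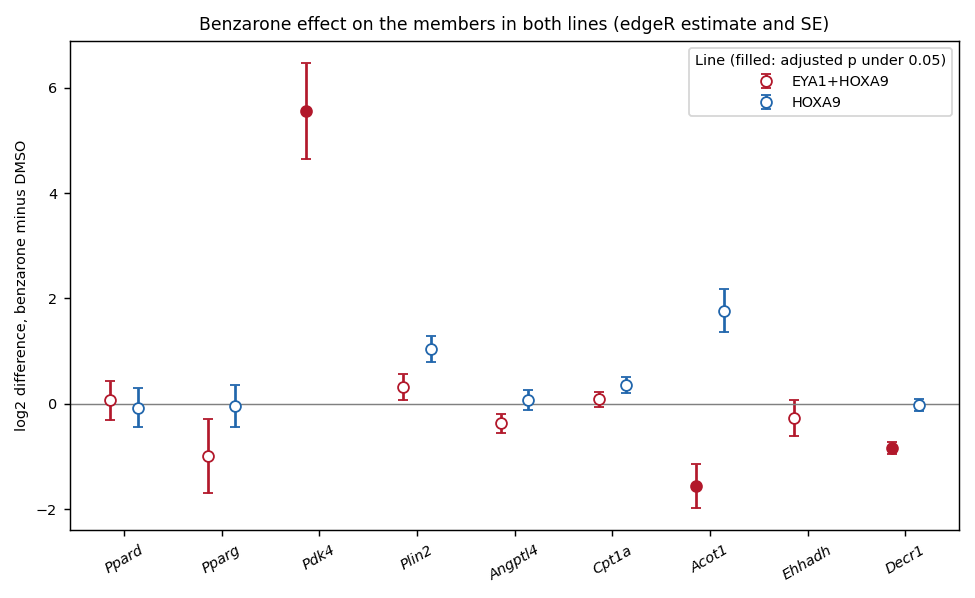
Log2 differences of benzarone minus DMSO with SE from edgeR (vertical axis) for the members in EYA1+HOXA9 cells (red) and HOXA9 cells (blue), n = 3 each. Filled points passed an adjusted p of 0.05. Acot1 lies at -1.56 in EYA1+HOXA9 and 1.77 in HOXA9 cells, and Pdk4 and Ehhadh are not drawn for HOXA9, where a group had 3 counts or fewer.

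The effects of benzarone on Acot1 and Decr1 differed between the lines by the interaction test, which called 2 of 9 members, both lower, and 7.54% of all genes, 4.71% higher and 2.83% lower. The effect on Acot1 was lower in EYA1+HOXA9 than in HOXA9 cells by -3.33 ± 0.59 on the log2 scale (edgeR adjusted p = 0.00751), or by -2.88 with Acot2 summed in (adjusted p = 0.00307). That on Decr1 was lower by -0.81 ± 0.16 (adjusted p = 0.0126), and missed the threshold with all 4 libraries numbered 3 left out (adjusted p = 0.0895). Plin2 did not pass (-0.72 ± 0.35, adjusted p = 0.248), nor did Cpt1a (-0.28, adjusted p = 0.488) or Angptl4 (-0.45, adjusted p = 0.343). The receptors Ppard (0.145, adjusted p = 0.908) and Pparg (adjusted p = 0.543) did not pass either. Nor did Pdk4 (adjusted p = 0.905) or Ehhadh (adjusted p = 0.317), which had 1 and 2 counts in HOXA9 DMSO cells. Among the wider lists, Abcd2 (-0.92, adjusted p = 0.00735), Acot2 (-1.61, adjusted p = 0.0283), Acsl1 (-0.72, adjusted p = 0.0192) and Mgll (-2.02, adjusted p = 0.0377) responded lower in EYA1+HOXA9 cells.

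Further genes of the pathway were called with benzarone in EYA1+HOXA9 cells, where 29.4% of all genes were called, 17.0% higher and 12.4% lower. Of 13 PPAR partners and cofactors tested, 3 rose and 1 fell (median log2 0.08, against 0.01 over all genes). Rxra, the partner in the receptor pair, stood at 54.1 ± 6.94 CPM with benzarone and 28.5 ± 5.95 CPM with DMSO (0.92, adjusted p = 0.0289). Ppargc1a, the coactivator PGC-1α, stood at 6.37 ± 1.22 and 0.579 ± 0.856 CPM (3.42, adjusted p = 0.00472), and the corepressor Nrip1 at 1.39 ± 0.274 and 0.0915 ± 0.1 CPM (3.82, adjusted p = 0.000907). Of 21 genes of uptake and lipid droplets 6 rose and 5 fell (median 0.06). Pdk2, a second pyruvate dehydrogenase kinase, stood at 18.1 ± 4.82 and 2.32 ± 1.68 CPM (2.95, adjusted p = 0.00031), and its response differed between lines (2.46, adjusted p = 0.018). G0s2, an inhibitor of fat breakdown, stood at 1.09 ± 0.251 and 10.8 ± 3.17 CPM (-3.29, adjusted p = 0.000247). Acsl1, which activates fatty acids, stood at 74.4 ± 5.96 and 112 ± 16 CPM (-0.59, adjusted p = 0.00246).

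Oxidation genes moved both ways in that comparison, where 29.4% of all genes were called. Of 17 mitochondrial β-oxidation genes 1 rose and 2 fell (median 0.12), and of 14 peroxisomal and omega oxidation genes 5 rose and 2 fell (median 0.23). Acot2 (-1.15, adjusted p = 0.00806) and the muscle-type carnitine transferase Cpt1b (-1.91, adjusted p = 0.0181) were lower, and the thiolase Acaa2 was higher (0.47, adjusted p = 0.0264). The peroxisomal enzymes Pecr (0.63, adjusted p = 0.00379) and Hsd17b4 (0.44, adjusted p = 0.00586) were higher. Of 6 sterol efflux genes, Apoe (-1.43, adjusted p = 0.000897) and Nr1h3, the receptor LXRα (-0.75, adjusted p = 0.0374), fell. Of 11 hypoxia genes 3 fell, namely Pgk1 (-0.93, adjusted p = 0.0075), Bnip3 (-2.51, adjusted p = 0.0106) and Ldha (-0.58, adjusted p = 0.0291), and 0 rose. In HOXA9 cells edgeR called 0 genes of any of these lists, whose medians lay between -0.12 and 0.20.

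Genes of the same lists differed between the lines in DMSO, where 22.9% of all genes were called, 12.1% higher and 10.8% lower. EYA1+HOXA9 cells had more Rxrb (0.45, adjusted p = 0.0246), the only one of 13 partners and cofactors called. Of 17 mitochondrial genes 1 was higher and 3 were lower, with Acot2 at 9.98 ± 3.82 and 4.28 ± 0.272 CPM (1.22, adjusted p = 0.0078), Acadm at -0.39 (adjusted p = 0.0213) and Acaa2 at -0.47 (adjusted p = 0.0318). Of 14 peroxisomal genes 1 was higher and 3 were lower, with Acot4 the higher one, Pecr at -0.93 (adjusted p = 0.000345) and Hsd17b4 at -0.42 (adjusted p = 0.0103). G0s2 stood at 10.8 ± 3.17 CPM in EYA1+HOXA9 and 0.049 ± 0.0546 CPM in HOXA9 cells (7.62, adjusted p = 4.33e-06). Lpl, the lipase that releases fatty acids from lipoproteins, was lower at 23.3 ± 2.88 against 94.6 ± 50.1 CPM (-2.02, adjusted p = 0.00398), as was the droplet protein Plin3 (-0.54, adjusted p = 0.0164). The sterol pumps Abca1 (3.48, adjusted p = 0.00368) and Abcg1 (1.34, adjusted p = 0.00615) were higher and Nr1h3 lower (-1.13, adjusted p = 0.00518). Of 11 hypoxia genes, Slc2a1 (-1.125, adjusted p = 0.00978) and P4ha1 (-0.67, adjusted p = 0.0419) were lower.

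Between the lines in benzarone, where 25.3% of all genes were called, 3 of 13 partners and cofactors were higher in EYA1+HOXA9 cells and 0 lower. Rxra was among the higher ones (1.496, adjusted p = 0.00244). Of 17 mitochondrial genes 0 were higher and 2 lower, Etfb (-0.70, adjusted p = 0.00271) and Slc25a20 (-0.37, adjusted p = 0.0369). Of 14 peroxisomal genes 5 were higher and 4 lower, led by Ech1 (-0.65, adjusted p = 0.00125). Of 21 uptake and droplet genes 4 were higher and 4 lower, led by G0s2 (4.23, adjusted p = 0.000342). Of 6 sterol genes, Nr1h3 was lower (-1.76, adjusted p = 0.000253), and of 11 hypoxia genes 1 was higher and 6 lower, led by Ldha (-0.89, adjusted p = 0.0035).

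In the c-Kit+ cells, MOZ-TIF2 cells had more Ppard and Plin2 than fresh cells, 2 of 8 members tested, while 23.7% of all 15224 genes were called, 11.3% higher and 12.4% lower. Ppard read 24.3 and 34.3 CPM in MOZ-TIF2 cells, 53.0 and 36.9 CPM in differentiated cells, and 12.2 and 12.6 CPM in fresh cells. Both cultured groups lay above the fresh one (1.24 ± 0.29 for MOZ-TIF2 against fresh, edgeR adjusted p = 0.0292, and 1.86 ± 0.29 for differentiated against fresh, adjusted p = 0.00606), and MOZ-TIF2 cells lay below differentiated cells without passing the test (-0.62, adjusted p = 0.15). Pparg read 2.35 and 5.86 CPM in MOZ-TIF2 cells, 4.78 and 1.83 CPM in differentiated cells, and 12.5 and 8.21 CPM in fresh cells. It was lowest in the cultured groups without passing the test (-1.33, adjusted p = 0.195 and -1.65, adjusted p = 0.0997 against fresh). Ppara had 0 to 2 counts in each library, and Pdk4 0 to 12 counts, so neither was tested.

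**Figure D3:**
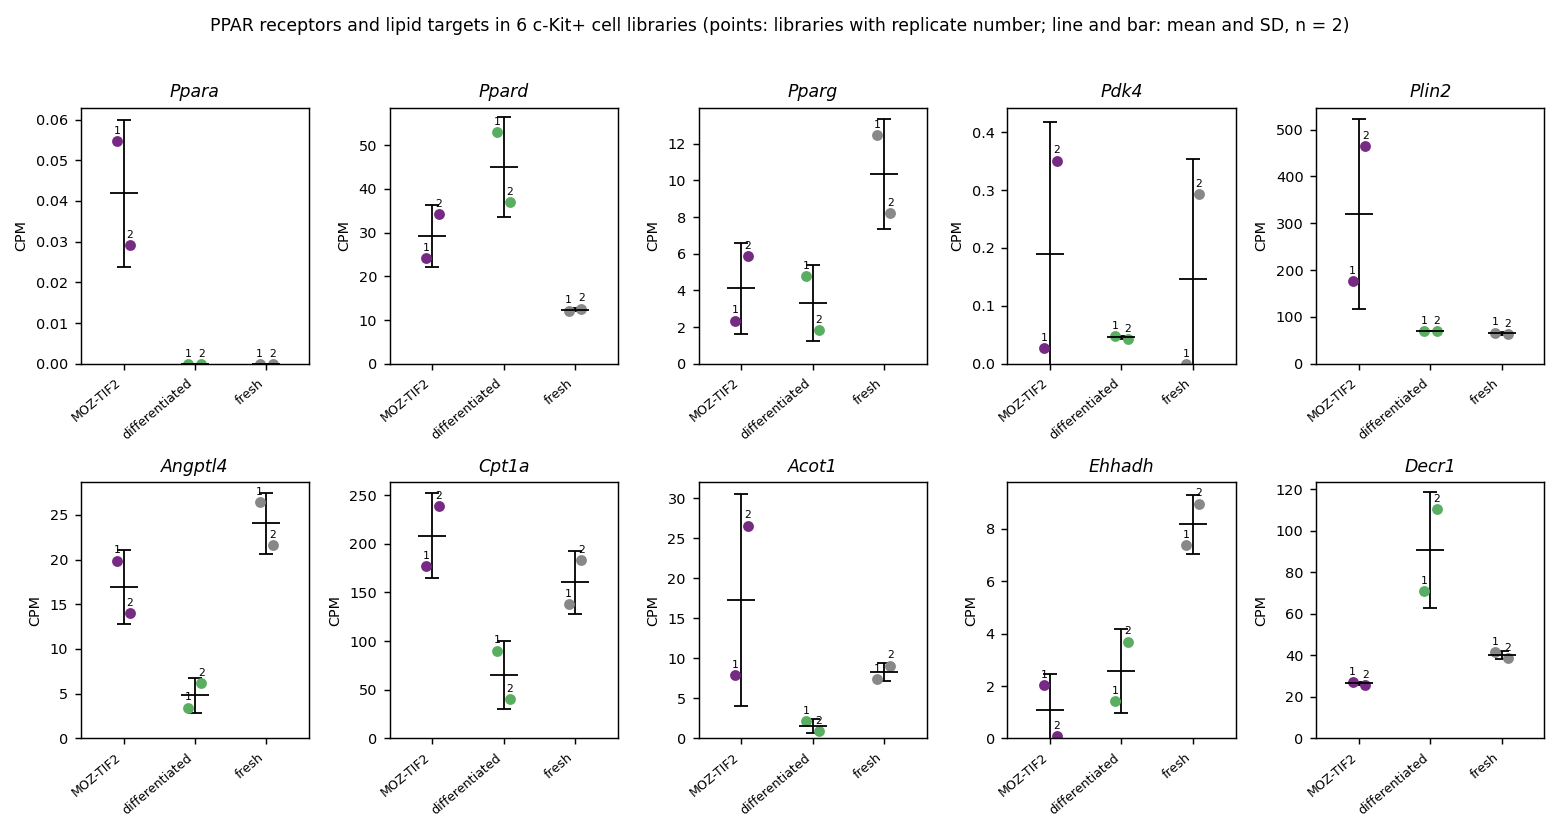
Normalised counts (CPM, vertical axes) of the 10 genes in each of the 6 c-Kit+ cell libraries, with the group mean and SD (n = 2; bars are clipped at 0). Plin2 reaches 464 CPM in MOZ-TIF2 cells and stays at 62.8 to 70.2 CPM in the other libraries, and Decr1 is highest in differentiated cells.

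Plin2 read 177 and 464 CPM in MOZ-TIF2 cells, 70.2 and 69.2 CPM in differentiated cells, and 66.7 and 62.8 CPM in fresh cells. Both MOZ-TIF2 libraries lay above the rest, but differed from each other by more than the other groups did. Plin2 was higher by log2 2.31 ± 0.45 than in fresh cells (adjusted p = 0.0187) and by 2.20 ± 0.45 than in differentiated cells (adjusted p = 0.0159). Acot1 read 7.94 and 26.6 CPM in MOZ-TIF2 cells, 2.17 and 0.921 CPM in differentiated cells, and 7.45 and 9.08 CPM in fresh cells. It overlapped between MOZ-TIF2 and fresh cells (1.06, adjusted p = 0.284), and was higher in MOZ-TIF2 than in differentiated cells (3.49 ± 0.73, adjusted p = 0.0173), but not with Acot2 summed in (0.91, adjusted p = 0.213).

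MOZ-TIF2 and differentiated cells differed in 5 of 8 members, 4 higher and 1 lower in MOZ-TIF2 cells, where 29.5% of all genes were called, 13.3% higher and 16.2% lower. Besides Plin2 and Acot1, Angptl4 was higher, with 19.9 and 14.0 CPM in MOZ-TIF2 cells, 3.44 and 6.22 CPM in differentiated cells and 26.4 and 21.7 CPM in fresh cells (1.80 ± 0.39, adjusted p = 0.0187). Cpt1a was higher as well, with 177 and 239 CPM, 90.1 and 40.1 CPM, and 138 and 183 CPM in the same 3 groups (1.68 ± 0.42, adjusted p = 0.0303). Decr1 was lower, with 27.1 and 25.8 CPM, 70.8 and 110.4 CPM, and 41.7 and 38.8 CPM (-1.78 ± 0.26, adjusted p = 0.00538). Ehhadh read 2.05 and 0.0875 CPM in MOZ-TIF2 cells, 1.43 and 3.70 CPM in differentiated cells, and 7.38 and 8.96 CPM in fresh cells. It was not called in any of these comparisons, but was called lower in MOZ-TIF2 cells without their replicate 1 (adjusted p = 0.0153 against fresh and 0.0239 against differentiated). For Pparg, MOZ-TIF2 minus differentiated cells gave 0.32 (adjusted p = 0.759). Angptl4 (-0.50, adjusted p = 0.361), Cpt1a (0.38, adjusted p = 0.534) and Decr1 (-0.60, adjusted p = 0.132) did not pass between MOZ-TIF2 and fresh cells.

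Differentiated and fresh cells differed in 5 of 8 members, Ppard and Decr1 higher and Angptl4, Cpt1a and Acot1 lower, with 40.7% of all genes called, 21.0% higher and 19.7% lower. Angptl4 differed by -2.31 ± 0.40 (adjusted p = 0.00786), Cpt1a by -1.30 ± 0.42 (adjusted p = 0.0497), Acot1 by -2.43 ± 0.71 (adjusted p = 0.0372) and Decr1 by 1.17 ± 0.25 (adjusted p = 0.0154). The Cpt1a call was lost with RLE scaling (adjusted p = 0.0513), and that of Acot1 with Acot2 summed in (-0.60, adjusted p = 0.356). Plin2 did not pass (0.11 ± 0.43, adjusted p = 0.863). These 3 comparisons share their groups in pairs. Against fresh cells, 7 of 9 mast cell and basophil markers were higher in differentiated cells, and all 9 were lower in MOZ-TIF2 than in differentiated cells. Monocyte and macrophage markers summed to 38.0 to 91.3 CPM in MOZ-TIF2 cells, 585 to 601 CPM in differentiated cells and 1176 to 1363 CPM in fresh cells, with C1qa, C1qb and C1qc at 0 in MOZ-TIF2 cells. Primary granule markers summed to 9069 to 15440, 26.1 to 234 and 6722 to 9258 CPM in the same order of groups, late neutrophil markers to 977 to 4983, 42.4 to 73.7 and 19270 to 20810 CPM, and erythroid markers to 333 to 429, 297 to 303 and 4590 to 6263 CPM. Stem and progenitor markers summed to 103 to 166, 4879 to 5225 and 395 to 396 CPM. The part of these cell types in the member differences was not tested. Adipocyte markers were near 0 except in fresh cells, where Adipoq averaged 7.67 CPM.

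With 2 libraries a group, leaving out 1 leaves a group of 1 and less to estimate spread from. A call lost in this way does not show that 1 library made the difference. In MOZ-TIF2 against fresh cells without fresh replicate 1 or 2, Plin2 differed by log2 2.31 and 2.27, and Ppard by 1.18 and 1.27. Without MOZ-TIF2 replicate 1 or 2, Plin2 differed by 2.84 and 1.45, and Ppard by 1.47 and 0.97. No member was called against fresh cells when either fresh library was left out: Plin2 in MOZ-TIF2 cells then had adjusted p = 0.147 and 0.132, and Ppard 0.199 and 0.157. In differentiated cells, Ppard then had 0.0647 and 0.0586, Angptl4 0.0742 and 0.0517, Cpt1a 0.125 and 0.221, Acot1 0.124 and 0.15, and Decr1 0.112 and 0.113. Against differentiated cells without their replicates 1 and 2, Plin2 had adjusted p = 0.0774 and 0.0731. Angptl4 was lost without differentiated replicate 1 (0.0655) or MOZ-TIF2 replicate 1 (0.056), and Cpt1a without differentiated replicate 2 (0.0679) or MOZ-TIF2 replicate 2 (0.0793). Acot1 was lost without differentiated replicate 2 (0.073), and against fresh cells without differentiated replicate 1 (0.0648) or 2 (0.135). Cpt1a against fresh cells was lost without differentiated replicate 2 (0.119). Ppard against fresh cells was lost without MOZ-TIF2 replicate 2 (0.079). Decr1 in MOZ-TIF2 against differentiated cells held in every such fit.

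The wider lists moved unevenly in the c-Kit+ cells, where 23.7% of all genes were called between MOZ-TIF2 and fresh cells. In MOZ-TIF2 against fresh cells, 5 of 12 partners and cofactors were higher and 1 was lower (median log2 0.78). Nrip1 averaged 0.0975 ± 0.0553 CPM in MOZ-TIF2 cells, 46.2 ± 13.9 CPM in differentiated cells and 39.7 ± 4.56 CPM in fresh cells (-8.58, adjusted p = 0.000919 against fresh). Of 18 mitochondrial β-oxidation genes 0 were higher and 2 lower. Of 14 peroxisomal genes 4 were higher and 0 lower, among them the transporter Abcd2 with 209.8 ± 73.2 CPM in MOZ-TIF2 cells and 26.9 ± 6.74 CPM in fresh cells (2.96, adjusted p = 0.00395). Of 22 uptake and droplet genes 4 were higher and 5 lower. Plin3 was higher (2.66, adjusted p = 0.0028) and the fatty acid carrier Cd36 lower, with 0.072 ± 0.0632 against 14.3 ± 2.06 CPM (-7.55, adjusted p = 0.0055). Of 12 hypoxia genes 7 were higher and 0 lower (median 2.14), including the glucose transporter Slc2a1 (4.29, adjusted p = 0.00141), Bnip3 (4.36, adjusted p = 0.00192) and Vegfa (3.12, adjusted p = 0.00899). Of 6 sterol efflux genes 0 were higher and 3 lower, led by Apoe (-7.16, adjusted p = 0.00364).

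Of all genes, 29.5% were called between MOZ-TIF2 and differentiated cells and 40.7% between differentiated and fresh cells. In MOZ-TIF2 against differentiated cells, 4 of 18 mitochondrial genes were higher and 1 was lower, led by Acaa2, with 50.2 against 18.7 CPM on average (1.42, adjusted p = 0.00327). Of 14 peroxisomal genes 3 were higher and 3 lower, with Abcd2 at 209.8 ± 73.2 against 3.18 ± 0.199 CPM (6.04, adjusted p = 0.000426) and Hsd17b4 at -1.66 (adjusted p = 0.00258). Of 22 uptake and droplet genes 4 were higher and 6 lower, with Acsl1 at 2.46 (adjusted p = 0.00234) and Cd36 at -8.62 (adjusted p = 0.0022). Partners and cofactors gave 2 higher and 3 lower of 12, sterol genes 0 and 3 of 6, and hypoxia genes 4 and 1 of 12. In differentiated against fresh cells, 0 mitochondrial genes were higher and 7 of 18 were lower, again led by Acaa2 (-1.80, adjusted p = 0.00169). The counts higher and lower there were 5 and 1 for partners, led by Ncoa3 (2.96, adjusted p = 0.00289), and 4 and 2 for peroxisomal genes, led by Abcd2 (-3.07, adjusted p = 0.00221). They were 7 and 4 for uptake and droplets, led by Acsl1 (-2.79, adjusted p = 0.00174), 2 and 2 for sterol genes, led by Apoe (-6.32, adjusted p = 0.00266), and 5 and 1 for hypoxia genes, led by Slc2a1 (4.26, adjusted p = 0.000881).

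In single MOZ-TIF2 cells, Plin2 and Acot1 were higher with benzarone than with DMSO on days 1 and 5. Day 3 has no DMSO cells here, so its values are set beside DMSO cells of day 1, where treatment and time cannot be told apart. Each condition was 1 sample, and day 5 was 1 sample holding both treatments, so no test was possible and intervals cover counting error only. The counts came from 826 benzarone and 883 DMSO cells on day 1, 829 benzarone cells on day 3, and 1496 benzarone and 1662 DMSO cells on day 5. Median UMIs (unique molecular identifiers) per cell were 44761.5 and 42565 on day 1, 44743 on day 3, and 19763 and 24575.5 on day 5. Any 2 of the 5 conditions shared 0 to 3 cell barcodes. Days 1 and 3 stand in another table than day 5, so levels are compared within each table only.

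Plin2 stood at 222 CPM with benzarone, against 79.5 CPM with DMSO, on day 1 (ratio 2.80, interval 2.68 to 2.91). On day 3 it stood at 472 CPM with benzarone, 5.93 times the DMSO cells of day 1 (interval 5.71 to 6.17). On day 5 it stood at 1190 CPM with benzarone, against 97.6 CPM with DMSO (ratio 12.2, interval 11.8 to 12.6). Among 4699 genes of at least 20 CPM, Plin2 was 10th by ratio on day 1, and it was 111th of 5033 on day 5. Genes at least 2-fold higher made up 0.277% on day 1, 2.18% on day 3 and 15.2% on day 5.

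Acot1 stood at 31.5 CPM with benzarone, against 14.9 CPM with DMSO, on day 1 (ratio 2.11, interval 1.91 to 2.33), and was 13th of 4699. Cells thinned to 10000 UMIs gave 1.86. On day 3 it stood at 50.3 CPM (ratio 3.37 to DMSO cells of day 1), and on day 5 at 61 CPM against 10.7 CPM (5.71, interval 5.14 to 6.34). Cpt1a stood at 13.4 CPM against 9.26 CPM on day 1 (1.44, interval 1.26 to 1.66), 16.3 CPM on day 3, and 24.1 CPM against 5.88 CPM on day 5 (4.10, interval 3.55 to 4.75). Angptl4 went the other way with time: 32.3 CPM against 24.6 CPM on day 1 (1.31), 30.9 CPM on day 3, and 14.5 CPM against 23.2 CPM on day 5 (0.624, interval 0.558 to 0.698). Decr1 stayed near its DMSO level, with ratios of 1.05, 0.998 and 0.931 on days 1, 3 and 5, though 0.743 on day 5 after thinning.

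The receptors were low in single cells. Ppard stood at 5.21 CPM with benzarone, against 6.57 CPM with DMSO, on day 1 (ratio 0.794, interval 0.655 to 0.96), and at 9.33 CPM against 4.99 CPM on day 5 (1.87, interval 1.56 to 2.24). Pparg stood at 3.18 CPM against 3.32 CPM on day 1 (0.957, interval 0.74 to 1.24), 4.61 CPM with benzarone on day 3, and 9.70 CPM against 5.30 CPM on day 5 (1.83, interval 1.54 to 2.19, or 2.54 after thinning).

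**Figure D4:**
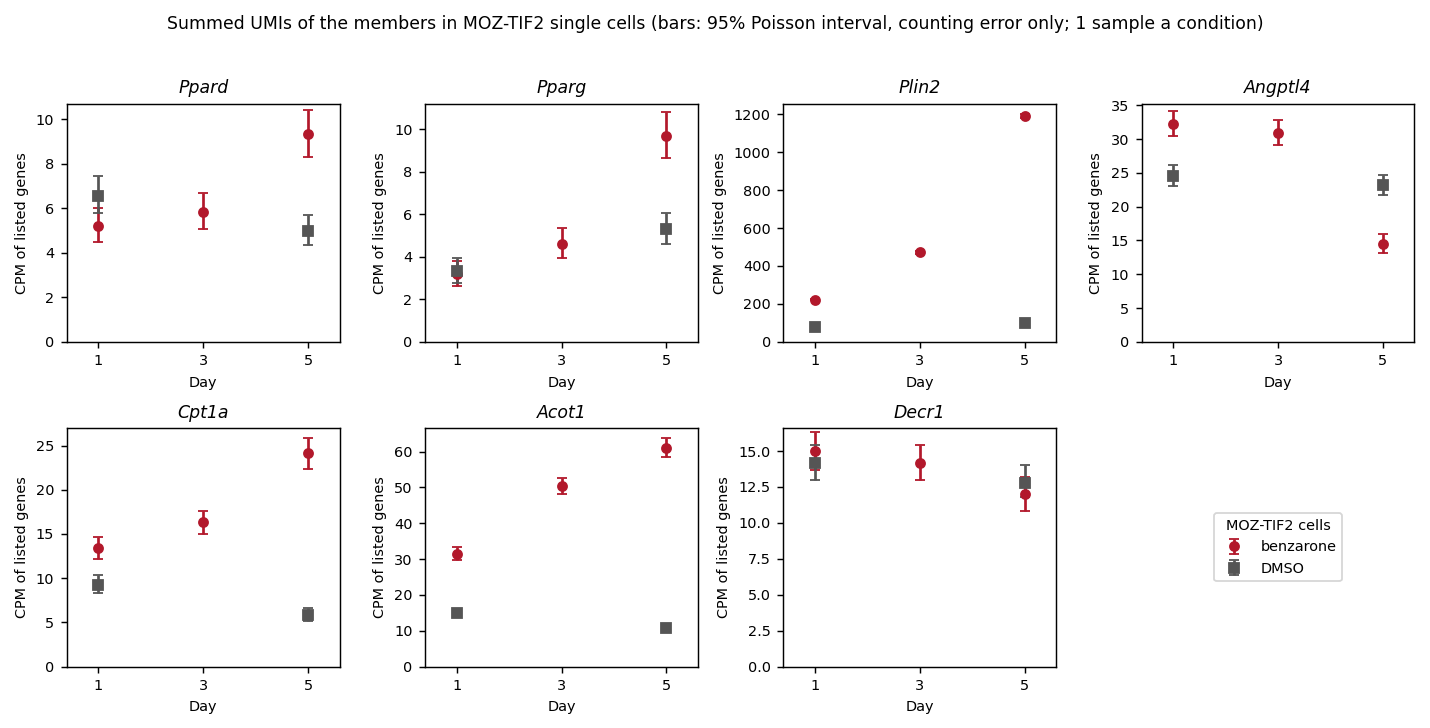
Summed UMIs as CPM over the listed genes (vertical axes) for 7 members in MOZ-TIF2 single cells by day (horizontal axes), with benzarone in red and DMSO in grey and 95% Poisson intervals. Plin2 with benzarone stands at 222, 472 and 1190 CPM on days 1, 3 and 5, and Decr1 differs little between treatments.

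The Plin2 difference was seen across the spread of cells on day 5, and from the median up on day 1. After thinning each cell to 10000 UMIs, the median cell had 1 Plin2 UMI with benzarone and 0 with DMSO on day 1, 3 with benzarone on day 3, and 10 with benzarone and 1 with DMSO on day 5. The 10th and 90th percentiles on day 5 were 3 and 22 UMIs with benzarone and 0 and 2 with DMSO. On day 1 the 10th and 25th percentiles were 0 with both treatments, and the 90th was 7 with benzarone and 2 with DMSO. Thinning left out 126 benzarone and 42 DMSO cells of day 5 that were shallower. Across cells of one condition, Plin2 and Acot1 had a Spearman correlation of -0.025 to 0.12, in counts from the same cells at equal depth.

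**Figure D5:**
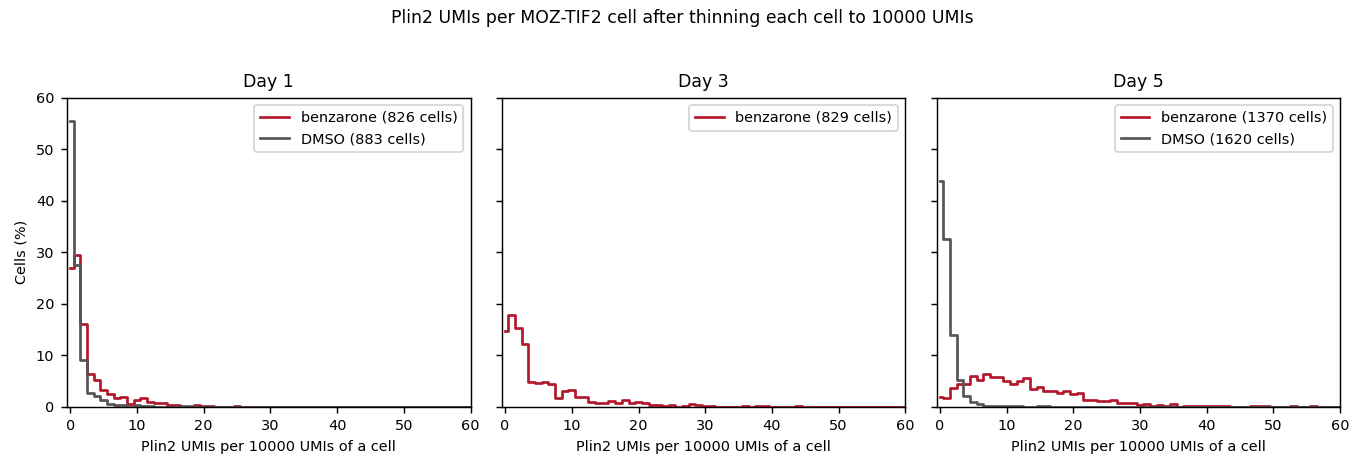
Share of MOZ-TIF2 cells (%, vertical axis) by their number of Plin2 UMIs after thinning to 10000 UMIs per cell (horizontal axis), on days 1, 3 and 5, with benzarone in red and DMSO in grey. On day 5 the medians are 10 UMIs with benzarone and 1 with DMSO.

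Other markers moved in the same cells. The 7 monocyte and macrophage markers listed for days 1 and 3 summed to 41.3 CPM with benzarone and 37.5 CPM with DMSO on day 1, and 135.5 CPM with benzarone on day 3. On day 5 the 8 listed summed to 786 CPM against 53.2 CPM, and each was higher with benzarone, such as Cd68 at 308 against 25.6 CPM and Adgre1 at 79.2 against 6.72 CPM. The 6 primary granule markers summed to 11190 CPM with benzarone and 10140 CPM with DMSO on day 1, 9805 CPM with benzarone on day 3, and 1658 against 10650 CPM on day 5. The late neutrophil markers, 6 listed for days 1 and 3 and 7 for day 5, summed to 6312 against 6846 CPM on day 1, 6921 CPM with benzarone on day 3, and 19900 against 10030 CPM on day 5. Single late neutrophil genes differed on day 1 too, such as Ngp at 48.2 against 13.6 CPM, chosen after its values were seen. The part of the markers in the member differences was not tested on any day. Within a condition, Plin2 and the summed monocyte and macrophage markers had a Spearman correlation of 0.14 to 0.4 across cells.

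Other lipid genes moved both ways in the single cells. Of the uptake and droplet genes, 12 of 17 listed on day 1 and 14 of 21 on day 5 stood higher with benzarone, and 5 and 7 lower. The share of all genes that stood higher was not computed, so these counts are not read as particular to the list. Of all genes of at least 20 CPM on day 5, 15.2% were at least 2-fold higher and 14.6% lower. Lpl stood at 53.5 CPM with benzarone, against 22.8 CPM with DMSO, on day 1, 140 CPM with benzarone on day 3, and 1270 against 28.4 CPM on day 5. Hilpda, an inhibitor of droplet lipolysis, stood at 38.4 against 24.3 CPM on day 1 and 299 against 32.9 CPM on day 5. The sterol pump Abcg1 stood at 5.69 against 2.34 CPM on day 1 and 97.5 against 5.95 CPM on day 5. The 15 mitochondrial β-oxidation genes listed for days 1 and 3 summed to 1150 CPM with benzarone and 1036 CPM with DMSO on day 1. Of these, 14 stood higher with benzarone and 1 lower. On day 5 the 16 listed summed to 913 against 1115 CPM, with 5 higher and 11 lower. Of the peroxisomal and omega oxidation genes, 10 of 12 listed stood higher on day 1 and 10 of 13 on day 5, and 1 and 3 lower. These counts too have no share of all genes beside them. Lower on day 5 were Acsl3, at 6.86 against 16.7 CPM, and Acsl5, at 47.3 against 69.3 CPM. These 5 single genes were picked from their lists after their values were seen.

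Cpt1a was the only member with a Ty1 peak shared by both replicates within 5 kb of a gene end, against 17.6% of 21900 protein-coding genes. The peaks, 3676 and 4564 in the 2 replicates with 3303 shared, are the authors' intervals on GRCm38 without scores. At Cpt1a (chromosome 19, 3322326 to 3385735) they spanned 3325102 to 3325451 in replicate 1 and 3323802 to 3325251 in replicate 2, starting 1801 and 501 bases after the gene start used for the promoter above. The label of replicate 2 gives the catalogue number of the acetyl-histone antibody, which leaves its antibody unsure. Within 50 kb of a gene end, Ppard, Plin2 and Cpt1a had a shared peak, against 34.1% of genes. The nearest peaks to Plin2 lay 14.9 and 15.0 kb beyond the gene end away from its promoter, and those near Pdk4 lay 882 kb off.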

How the data were processed

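RNA was measured in 12 line libraries, 6 c-Kit+ cell libraries and 5 single-cell conditions, and Ty1 binding in 2 samples. The bulk values deposited by the authors are estimated counts per gene, as their fractional values show, and were rounded to whole numbers first. Salmon 0.13.0, Cell Ranger 3.0.0, Bowtie2 and GRCm38 are named in the submitters' processing notes without a role. The deposited single-cell values are UMI counts, in tables that list part of the genes. The deposited peak lists give positions only, and their caller is not given in the sources used here. Of the 35429 line genes, 35267 were named through the c-Kit table and 162 stayed unnamed.

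Genes were tested per table with edgeR 4.0.16 (limma 3.58.1, R 4.3.3): filterByExpr, TMM, a quasi-likelihood fit with group terms, and Benjamini-Hochberg adjustment over all tested genes, called at 0.05. CPM uses TMM library sizes, and genes are compared with each other on no scale, since CPM is not per length. For a member with 20 counts or fewer in a group, the text gives counts or a ratio of summed counts in place of a fitted difference. The exact 95% interval of such a ratio covers counting error only and ignores the spread between libraries. DESeq2 1.42.0, other scalings and filters, a replicate block and leaving out each library were alternatives. No cell was removed and no doublet caller was run on the deposited cells, whose conditions come from the deposited annotation. Single-cell sums got exact Poisson intervals, which cover counting error only, with thinning to 10000 UMIs as an alternative. The scripts were tested on simulated data.

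The rule for named genes takes all 10 members and, of each list, up to 3 called genes with the smallest p in a comparison. Not all of these list genes are reported here. The members, lists and markers were chosen with earlier results of these data known. Same-numbered HOXA9 libraries deviated together (r = 0.279, 0.300 and 0.550), a pairing read from the data, while EYA1+HOXA9 libraries did not (-0.00252, -0.0653 and 0.00819). The acetyl-histone and input chromatin samples were not analysed here.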

Additional observations from a re-analysis of the deposited data

Results flagged for a closer look

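The response of Acot1 to benzarone differed between the lines, by -3.33 on the log2 scale for EYA1+HOXA9 minus HOXA9 (edgeR interaction, adjusted p = 0.00751). All 3 EYA1+HOXA9 libraries with benzarone lay below their DMSO libraries, and all 3 HOXA9 libraries with benzarone lay above theirs. The response of Decr1 differed by -0.81 (adjusted p = 0.0126), with benzarone libraries below all DMSO libraries in EYA1+HOXA9 cells and overlapping them in HOXA9 cells.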

How the results depend on the processing

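No member difference that passed the test changed sign under any alternative. Over single members, 1058 values stayed the same, 45 lost their call, 13 gained one and 3 moved. For bulk differences, the same means the same side of the threshold. For single-cell ratios, which have no test, it means lying within the counting interval of the main ratio, and the 3 that moved lay outside it. Leaving out each library in turn gave these ranges of called genes and of called members: 374 to 3181 and 0 to 3 for MOZ-TIF2 against fresh, 2847 to 4278 and 2 to 5 for MOZ-TIF2 against differentiated, and 1259 to 4891 and 0 to 4 for differentiated against fresh. For EYA1+HOXA9 against HOXA9 they were 1735 to 3486 and 2 to 3 in DMSO, and 2211 to 3596 and 5 to 6 in benzarone. For benzarone they were 2353 to 3923 and 3 to 4 in EYA1+HOXA9 cells, and 0 to 1 genes in HOXA9 cells, and the interaction gave 408 to 1182 genes. Decr1 and Pdk4 in EYA1+HOXA9 with benzarone, and the Acot1 interaction, were called in all alternatives.

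For benzarone in HOXA9 cells, DESeq2 called 14 genes and 2 members, and a fit of only the 2 groups 1 gene. For the interaction DESeq2 called 1702 genes. With only 2 groups in the fit, 3 members were called in MOZ-TIF2 against differentiated cells. The cause of these shifts was not tested. The replicate block, which the c-Kit+ numbers do not justify as pairing, left 2094 genes and 1 member in MOZ-TIF2 against fresh and 3 members in differentiated against fresh cells. In HOXA9 cells, where the pairing was read from the data, the block called 6 genes and 1 member over all line libraries, and 20 genes and 2 members over the 6 HOXA9 libraries only.

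The last fit, sums of Acot1 and Acot2, and fits without libraries numbered 3 were chosen after seeing the data. Without both EYA1+HOXA9 libraries numbered 3, 1724 genes were called between the lines in DMSO, 2284 for benzarone in EYA1+HOXA9 cells and 443 for the interaction. Without all 4 numbered 3, the interaction called 213 genes and 1 member, Acot1. With Acot1 and Acot2 summed, the lines differed in DMSO as well (0.98, adjusted p = 0.0202), and differentiated against fresh cells no longer did (-0.60, adjusted p = 0.356). Thinned cells left 1 member past 2-fold on day 1, and 3 members had a peak within 50 kb of a gene end. Receptors with few counts, Ppara above all, are limited by depth.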
